A study of Mus musculus with 2 samples.

Results

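The miR-30 family was described in serum exosomes of tumour-bearing mice, as the 5 mature miRNAs mmu-miR-30a-5p, mmu-miR-30b-5p, mmu-miR-30c-5p, mmu-miR-30d-5p and mmu-miR-30e-5p. The members were chosen by name, as the 5p arms of miR-30a to miR-30e among the 1881 mouse miRNAs of the array. Exosomes are small membrane vesicles that cells release into blood. LLC is a mouse Lewis lung carcinoma cell line, and the LLC cells of both groups carried luciferase. In the LLC group the cancer cells were injected under the skin alone, and in the MSC+LLC group BMSCs, mesenchymal stem cells from mouse bone marrow, were injected along with them. The study's methods describe the hosts as 6-week-old female C57BL/6 mice. Serum was taken once tumours had reached a mean volume of 200 mm3, and 100 ng of total RNA entered the labelling of each sample. The comparison asked how exosomal miRNAs differed when BMSCs accompanied the cancer cells.

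With 1 array for each group there were no replicates and no test between groups could be run, and every difference given is one between 2 arrays. The number of mice behind each array was not given in the labels. The labels name serum as the source and the text of the study plasma, and the labels were followed. Exosomes from all cells of the host circulate in serum, so the vesicles were not restricted to those of cancer cells or BMSCs. The arrays were labelled from equal amounts of total RNA. Neither the number of vesicles nor the amount of a miRNA per vesicle can be read from the signal.

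A miRNA guides a silencing complex to messenger RNAs that pair with its seed, a short stretch near its 5′ end, and lowers their translation and stability. Members of a seed family therefore share many predicted targets. The miR-30 family is broadly expressed, with high levels in kidney, heart and epithelia, and is known for repression of Snai1, a transcription factor of the epithelial to mesenchymal transition, and of connective tissue growth factor in heart. The 5p arm of the precursor is the usual guide strand, and the 3p arm is mostly the less abundant partner.

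The mature sequences are shown because they set what the family shares and where its members part. They were taken from RefSeq (GRCm38.p6), in which 3 of the 5 members were matched. They are written 5′ to 3′, with the seed (bases 2 to 8) in capitals. The fourth sequence, miR-384-5p, is another miRNA of the array with the same seed.
mmu-miR-30a-5p: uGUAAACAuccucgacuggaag
mmu-miR-30e-5p: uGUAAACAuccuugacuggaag
mmu-miR-30c-5p: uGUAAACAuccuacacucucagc
mmu-miR-384-5p: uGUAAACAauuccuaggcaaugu

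The seed GUAAACA was held by 4 of the 1679 mature miRNAs in the table (0.238%), and these were the 4 printed. miR-30b-5p and miR-30d-5p had no mature sequence there. They are therefore missing from the count, which does not mean that they lack the seed. Counted from 1 at the 5′ end, miR-30a-5p and miR-30e-5p differed at 1 of 22 positions (C13U, with the base of miR-30a-5p first). Between miR-30a-5p and miR-30c-5p 5 of 22 positions differed (C13A, G14C, G18C, G19U and A20C), and the first 12 bases were shared. miR-384-5p shared the first 8 bases with miR-30a-5p and differed from it at 10 of 22 positions. The 3 printed members were thus alike up to base 12 and all differed at base 13. After that base miR-30a-5p and miR-30e-5p were alike again, and only miR-30c-5p differed from them.

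miR-30a to miR-30e arise from 6 precursor genes in 3 neighbouring pairs. Mir30a lies next to Mir30c-2 on chromosome 1, and mature miR-30a-5p is at chr1:23272274-23272295 on the plus strand. Mir30c-1 lies next to Mir30e on chromosome 4, and both are inside the gene Nfyc, which encodes a subunit of the transcription factor NF-Y. Mir30e also lies inside a gene annotated as Mir30f. Mature miR-30e-5p is at chr4:120772660-120772681 on the minus strand. miR-30c-5p comes from both Mir30c-2 (chr1:23291714-23291736, plus strand) and Mir30c-1 (chr4:120769584-120769606, minus strand), and its signal cannot be divided between them. Mir30b and Mir30d are neighbours on chromosome 15. The hairpin of Mir30a (chr1:23272269-23272339, plus strand, GRCm38.p6) is shown because the only well-measured 3p arm of the family comes from it. It is 71 bases long, and capitals mark the 5p arm first and the 3p arm after the loop.
Mir30a hairpin: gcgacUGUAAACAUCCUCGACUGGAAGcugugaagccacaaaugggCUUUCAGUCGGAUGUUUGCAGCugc

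The arrays differed strongly in brightness. For probes that both arrays detected, the 75th percentile was 2883 intensity units in the LLC sample and 250.3 in the MSC+LLC sample, 11.5-fold less. A probe counted as detected if over 50% of its spots were well above background, and the lowest detected probe was at 20.9 units for LLC and 18.8 for MSC+LLC. The LLC array detected 502 of the 1881 miRNAs, the MSC+LLC array 258, and both arrays 240. Ratios are log2 values of MSC+LLC over LLC after each array was divided by its own 75th percentile, a scaling that raised every log2 ratio by 3.53. A ratio of 0 therefore means that a miRNA kept its place relative to the bright end of its array, not that its signal was equal. The arrays shared a slide and a scan.

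All 5 members were detected on both arrays. Their 11 probes were laid down as 150 spots per array, of which 11 probes were detected in the LLC sample and 9 in the MSC+LLC sample. Before scaling and with outlier spots left out, every LLC spot was brighter than every MSC+LLC spot for 10 of the 11 probes, the exception being the dimmer probe of miR-30c-5p. With outlier spots kept this held for 9 probes, since 1 outlier spot of the dimmer miR-30b-5p probe on the MSC+LLC array (11.3 units) passed its lowest LLC spot (11.1). The probes of a miRNA are numbered here from the brightest to the dimmest on the LLC array, and the SD is that over spots, which is technical.

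**Figure D1:**
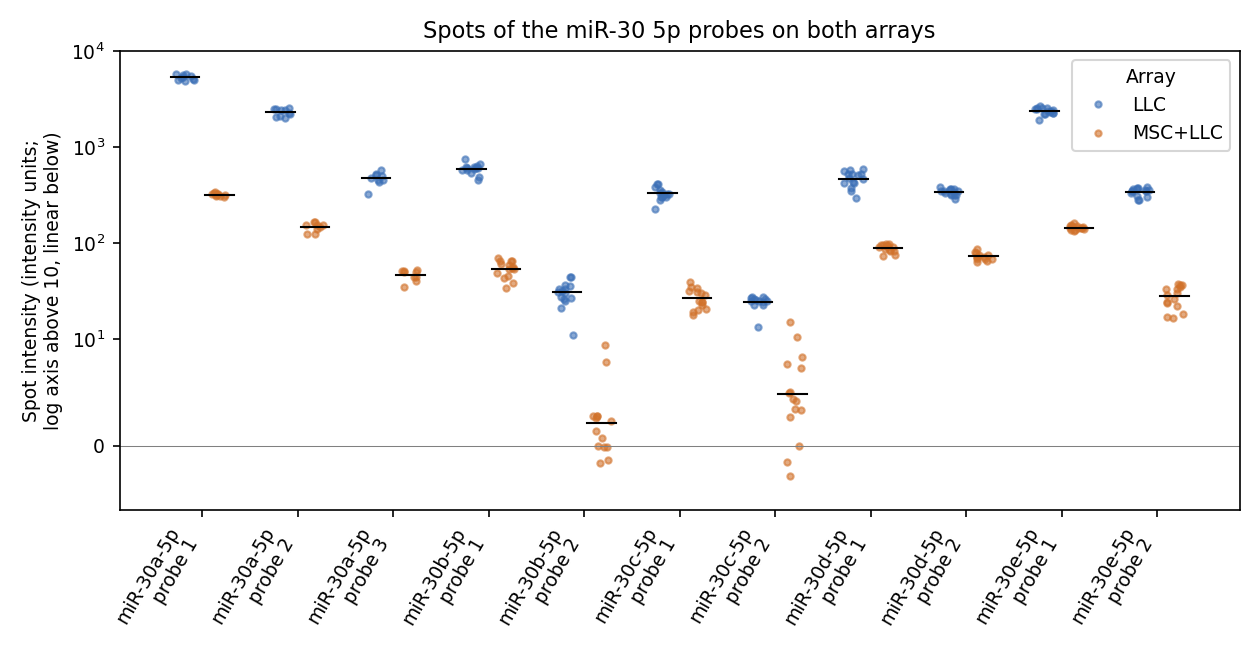
Intensity of each spot of the 11 miR-30 5p probes, outlier spots left out (vertical axis, intensity units before scaling, logarithmic above 10 and linear below) on the LLC array (blue) and the MSC+LLC array (orange), with a black bar at the mean of the spots. The LLC spots lie above the MSC+LLC spots for every probe except miR-30c-5p probe 2, and the gap is narrowest for the 2 miR-30d-5p probes among the 9 probes detected on both arrays.

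miR-30a-5p, which is known to repress Snai1 and the autophagy gene Beclin 1, had 3 probes detected on both arrays. Probe 1 gave 5271 ± 331 intensity units on the LLC array (SD, n = 10 spots, lowest 4796, median 5263, highest 5709). On the MSC+LLC array it gave 317 ± 11.6 units (n = 10, lowest 298, median 317, highest 334), a 16.6-fold lower signal before scaling. The spots of this probe were far apart between the arrays and close together within each. Probe 2 gave 2285 ± 194 units on the LLC array (n = 10) and 147 ± 15.4 on the MSC+LLC array (n = 9). Probe 3 gave 469 ± 69.6 units (n = 9) and 46.1 ± 6.09 (n = 9). The scaled log2 ratios were -0.53, -0.43 and 0.18 for probes 1, 2 and 3, and their mean was -0.26, with a spot SD of 0.22. The probes therefore disagreed in sign, with a range of 0.71. Relative to its array, miR-30a-5p was 1.20-fold lower with BMSCs, and without scaling its log2 ratio was -3.79.

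miR-30e-5p, whose gene lies inside Nfyc, had 2 probes detected on both arrays. Probe 1 gave 2360 ± 184 units on the LLC array (n = 15, lowest 1918, median 2378, highest 2674) and 144 ± 7.69 on the MSC+LLC array (n = 14, lowest 132, median 143, highest 160). Probe 2 gave 340.5 ± 34.5 units (n = 15) and 27.8 ± 7.31 (n = 15), with 12 of the 15 MSC+LLC spots well above background. The first probe was well clear of the detection limit on both arrays, while the second came close to it on the MSC+LLC array. Their log2 ratios were -0.51 and -0.09, with a mean of -0.30 and a spot SD of 0.33, a 1.23-fold lower value relative to the array. The ratios of miR-30a-5p and miR-30e-5p differed by 0.04, less than the spot SD of that difference (0.39). The probe sequences were not used here, and signal of 1 member read by the probes of another was not tested for any member.

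miR-30c-5p, known in liver for repression of microsomal triglyceride transfer protein, had 1 probe detected on both arrays. Probe 1 gave 327 ± 49.8 units on the LLC array (n = 14, lowest 227, median 323, highest 411). It gave 26.8 ± 6.49 on the MSC+LLC array (n = 15, lowest 17.8, median 24.9, highest 39.2), with 13 of the 15 spots well above background. The log2 ratio was -0.09, with a spot SD of 0.42, the widest among the members, and does not differ from 0 beyond that spread. Probe 2 was near the limit on the LLC array at 24.3 ± 3.64 units (n = 13), and on the MSC+LLC array its 15 spots averaged 4.83 units and were not well above background. This probe was at least 1.29-fold dimmer in the MSC+LLC sample before scaling, and after scaling no bound could be given.

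miR-30b-5p and miR-30d-5p come from neighbouring genes, and both have been described in melanoma as promoting invasion. miR-30b-5p had 1 probe detected on both arrays, at 592 ± 71.3 units on the LLC array (n = 14, lowest 456, median 596, highest 747). On the MSC+LLC array it was at 53.8 ± 10.3 units (n = 15, lowest 33.7, median 54.7, highest 68.8). The log2 ratio was 0.07, with a spot SD of 0.35, so the miRNA lay within the spot spread of its place on the LLC array. Its second probe was at 30.4 ± 8.36 units on the LLC array (n = 15, 13 spots well above background), while in the MSC+LLC sample it averaged 2.08 units and was not well above background. Before scaling that probe was at least 1.62-fold lower, and no scaled bound could be given.

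miR-30d-5p stood apart from the other members. Probe 1 gave 465 ± 84.4 units on the LLC array (n = 15, lowest 294, median 471, highest 582) and 88.3 ± 7.52 on the MSC+LLC array (n = 15, lowest 72.2, median 91.0, highest 96.8). Probe 2 gave 338.8 ± 25.1 units on the LLC array (n = 15, lowest 283, median 343, highest 378) and 72.5 ± 6.50 on the MSC+LLC array (n = 13, lowest 63.7, median 71.7, highest 86.6). Both probes were thus well above the detection limit on both arrays, and all their spots were well above background. The signal was 5.27-fold lower on the MSC+LLC array for probe 1 and 4.67-fold lower for probe 2 before scaling, against 10.2-fold to 16.6-fold lower for the 7 probes of the other members. The log2 ratios were 1.13 and 1.30, with a mean of 1.22 and a spot SD of 0.25. Relative to its array miR-30d-5p was thus 2.32-fold higher in the MSC+LLC group, but its log2 ratio was -2.31 without scaling, -2.35 with the hybridization spike-ins, -1.67 with all spike-ins and -0.998 with the labelling spike-ins, and close to 0 under the 75th percentile of all probes.

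**Figure D2:**
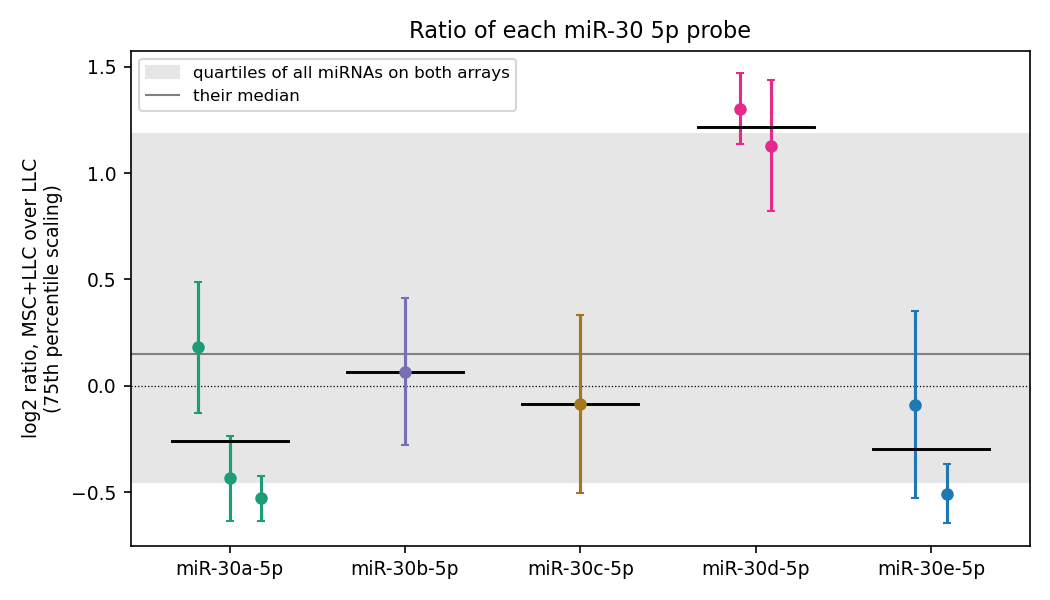
Log2 ratio of MSC+LLC over LLC for each of the 9 miR-30 5p probes detected on both arrays, after scaling to the 75th percentile. Points are probes, ordered within a member from the dimmest to the brightest on the LLC array, with 1 spot SD either way; black bars are the mean per miRNA, the grey band spans the quartiles of the 240 miRNAs on both arrays and the grey line is their median of 0.15. Both miR-30d-5p probes (1.13 and 1.30) lie above every other probe (highest 0.18), while the position of 0 depends on the scaling, and without scaling all 9 probes are below it.

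Relative to the array, 2 of the 5 members were above 0 and 3 below, and the family median was -0.09. None of the 5 was at least 2-fold lower, against 11.2% of the 240 miRNAs on both arrays (27 miRNAs). 1 of the 5, miR-30d-5p, was at least 2-fold higher, against 27.1% of the 240 (65 miRNAs). With 5 members, neither count is read as a result about the family. Among the 240 miRNAs 32.1% had a lower ratio than miR-30e-5p, 33.8% than miR-30a-5p, 38.8% than miR-30c-5p and 45% than miR-30b-5p. The 4 members thus lay somewhat below the middle of these 240. A miRNA detected on the LLC array alone had no ratio and is not among them. For miR-30d-5p 75.4% of the miRNAs were lower. These counts move with the scaling: 5 members were at least 2-fold lower and none higher without scaling, with all spike-ins or with the hybridization spike-ins.

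The difference between members of their log2 ratios is the same under any constant scaling. The order from low to high was miR-30e-5p, miR-30a-5p, miR-30c-5p, miR-30b-5p and miR-30d-5p. Neighbours among the first 4 did not differ beyond the spot spread, and these 4 members together spanned 0.36. miR-30d-5p was higher than the median of the other 4 by 1.39, a 2.62-fold difference in ratio. Of the 10 pairs of members, 4 differed by more than the spot SD of their difference, and each of the 4 held miR-30d-5p. The difference from miR-30e-5p was 1.51 (2.86-fold, spot SD 0.41), and that from miR-30a-5p was 1.48 (2.78-fold, spot SD 0.33). The difference from miR-30c-5p was 1.30 (2.46-fold, spot SD 0.49), and that from miR-30b-5p was 1.15 (2.22-fold, spot SD 0.43). The spot SD is the spread of single spots and leaves out the disagreement between probes of a miRNA. The probes of miR-30a-5p spanned 0.71 against a spot SD of 0.22, and those of miR-30e-5p 0.42 against 0.33. For miR-30d-5p they spanned 0.17 against 0.25. The spot SD also holds nothing of the spread between mice or hybridizations, so a spread between repeated arrays could be larger than these differences.

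Neighbouring genes did not always have like ratios. miR-30b-5p and miR-30d-5p, encoded next to each other on chromosome 15, differed by 1.15, whereas miR-30c-5p and miR-30e-5p differed by 0.21 and miR-30a-5p and miR-30c-5p by 0.18, both within the spot SD of their difference. For miR-30c-5p the signal of its 2 genes is joined in 1 value.

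Because the arrays differed in brightness, the members were also set side by side over probes of like signal, those between 300 and 600 units on the LLC array. In this window the log2 ratios were 0.18 for miR-30a-5p, 0.07 for miR-30b-5p, -0.09 for miR-30c-5p, -0.09 for miR-30e-5p and 1.30 and 1.13 for miR-30d-5p. The 65 probes of other miRNAs in the same window (55 miRNAs) had a median of -0.02 and quartiles of -0.53 and 0.41, and 7.69% of them lay above the lower miR-30d-5p probe. The miR-30d-5p ratios were above those of the other members in this window. That followed from the probe ratios already given, since both miR-30d-5p probes lay above every probe of the other members. The range between members in this window was 1.30. For miR-30a-5p and miR-30e-5p the ratio was lower in the brightest than in the dimmest probe, by differences of -0.71 and -0.42, and for miR-30d-5p by -0.17. Over the 146 miRNAs with at least 2 probes on both arrays the brightest probe was the lower in 50.7%, with a median difference of -0.003. Signal near background was treated in 2 other ways. Subtracting the negative control spots (mean ± SD of 2.26 ± 4.21 units for LLC and 4.10 ± 4.51 for MSC+LLC) gave a family median of -0.29 and a range of 1.58. Normexp background correction gave a family median of 0.76 and a range of 1.499, and moved miR-30c-5p from -0.09 to 1.10 and miR-30b-5p from 0.07 to 0.76. It put miR-30e-5p at 0.40, miR-30a-5p at 0.05 and miR-30d-5p at 1.55. All 5 members thus moved by more than their spot SD under normexp, which began from the median pixel signal and added an offset of 50 units. Under subtraction of the negative controls miR-30c-5p was at -0.29 and miR-30b-5p at -0.02. There all 5 members stayed within their spot SD of the reported ratio. The part that the offset had in the normexp values was not tested.

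**Figure D3:**
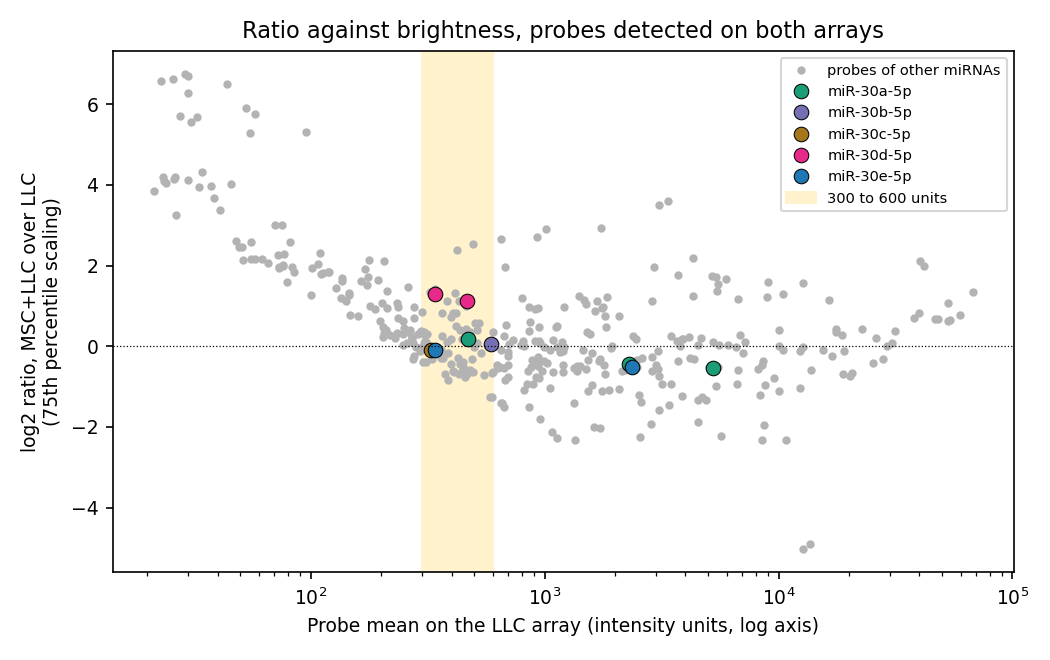
Log2 ratio of MSC+LLC over LLC (vertical axis, 75th percentile scaling) against the mean signal on the LLC array (horizontal axis, intensity units, log scale) for every probe detected on both arrays, with probes of the miR-30 5p members in colour and those of other miRNAs in grey. Dim probes at the left have high ratios only, since with a low ratio they are not detected on the dimmer array. In the shaded window of 300 to 600 units both miR-30d-5p probes lie above the other 4 members, whatever the constant scaling.

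The order was followed under 16 other ways of processing the arrays. miR-30d-5p had the highest ratio of the 5 members in 16 of these 16. Its lead over the next member ran from 0.45 to 1.34. Part of this count was fixed in advance. Settings that only changed the scaling constant (spike-ins, other reference probes or no scaling) could alter neither the order nor the lead. The deposited values were the summed signals shifted by a constant for each array. These 2 settings had the same range of 1.655 and are not separate checks. Where the order was free to change, miR-30d-5p was also the highest. The smallest lead, 0.45 over miR-30c-5p, came from normexp background correction. There miR-30d-5p was at 1.55, miR-30c-5p at 1.10, miR-30b-5p at 0.76, miR-30e-5p at 0.40 and miR-30a-5p at 0.05. This lead was below the spot SD of the difference between miR-30d-5p and miR-30c-5p as reported (0.49). The other members were also further apart there than as reported. The range between members ran from 1.30 to 1.72. The levels themselves moved far more, since the family median was between -3.65 and 0.76 over these settings.

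**Figure D4:**
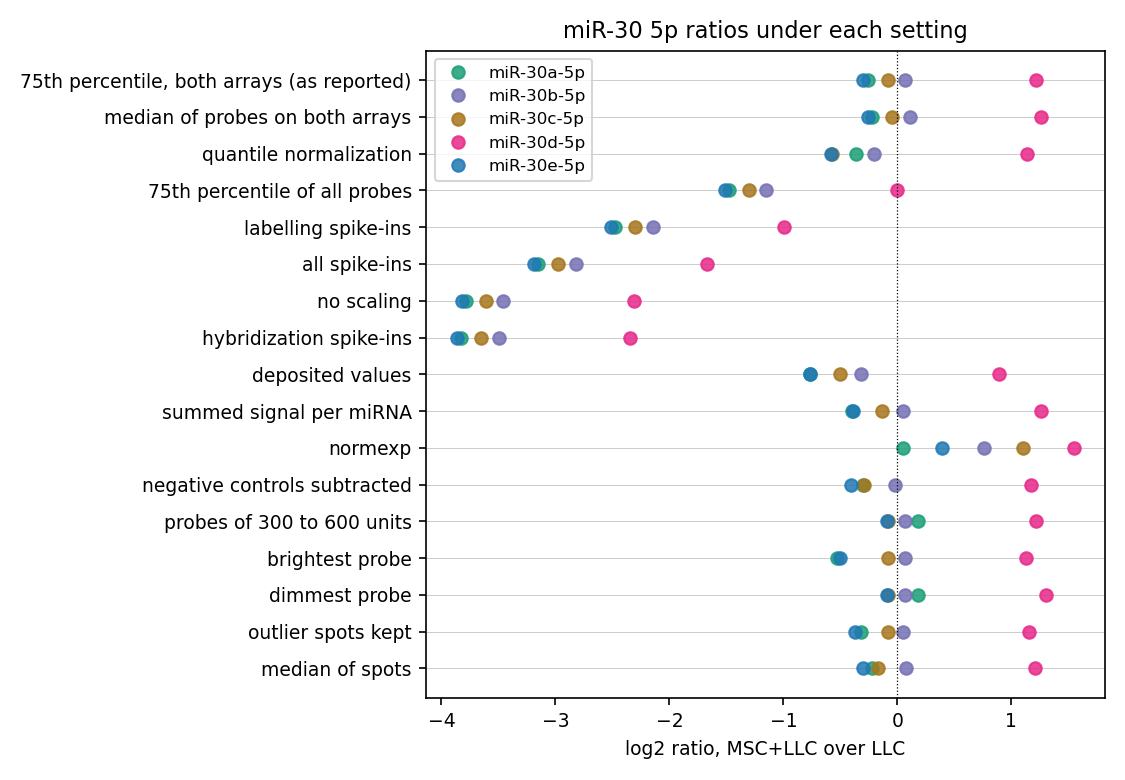
Log2 ratio of MSC+LLC over LLC (horizontal axis) of the 5 miR-30 5p members under the reported processing (top line) and 16 alternatives (other lines); each point is 1 member. Constant scalings move all 5 together, from a family median of -0.09 as reported to -3.65 with the hybridization spike-ins, and miR-30d-5p (pink) is the rightmost on every line.

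The table that the authors deposited held log2 values in which each array was shifted by a constant against the log2 of its summed signal, by -7.02 for LLC and -3.48 for MSC+LLC. The median was -10.34 in the LLC column and -6.80 in the MSC+LLC column, which is the value given to an undetected miRNA there. The MSC+LLC minus LLC differences in that table were -0.77 for miR-30a-5p, -0.32 for miR-30b-5p, -0.50 for miR-30c-5p, 0.89 for miR-30d-5p and -0.76 for miR-30e-5p. miR-30d-5p was thus the only member with a higher deposited value on the MSC+LLC array (1.61 against 0.72). An undetected miRNA differs by 3.54 in this table from the constants alone, as the 3p arms miR-30c-1-3p and miR-30d-3p did. How these constants were chosen was not given in the sources used here.

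The 3p arms of the same precursors, the partner strands of the members, were close to background. The array carried 18 probes for 6 of them, of which 2 arms, with 1 probe each, passed detection in the LLC sample and 0 in the MSC+LLC sample. The brighter probe of miR-30a-3p gave 71.2 ± 7.71 units on the LLC array (n = 15, lowest 51.4, median 73.2, highest 82.7), and all 15 spots were well above background. In the MSC+LLC sample it was not well above background (3.92 ± 2.54 units, n = 14). The miR-30a-3p signal before scaling was therefore at least 3.79-fold lower with BMSCs, and after scaling no bound could be given, since the detection limit lies above the level that an 11.5-fold dimmer array would show. miR-30c-2-3p was at 29.3 ± 8.36 units on the LLC array (n = 15, 12 spots well above background) and 3.42 ± 4.49 on the MSC+LLC array (n = 14), at least 1.56-fold lower before scaling. miR-30b-3p, miR-30c-1-3p, miR-30d-3p and miR-30e-3p were not detected on either array. The 2 probes of miR-384-5p, the other holder of the seed, averaged -2.07 and -0.20 units for LLC and 1.10 and -0.38 for MSC+LLC, all at background.

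Other broadly expressed seed families were set beside miR-30 to show where it lay. The let-7 family with miR-98, a regulator of developmental timing, had 7 of its 10 members on both arrays, a median log2 ratio of -1.70 and a range of 1.63, from let-7f-5p at -2.23 to let-7b-5p at -0.60, and 6 of the 7 were at least 2-fold lower. The miR-29 family, which represses collagens, had a median of -0.40 over 3 members and ran from miR-29b-3p at -1.06 to miR-29a-3p at -0.29. The miR-26 family had 2 members, miR-26b-5p at -2.15 and miR-26a-5p at -0.18. The miR-30 median of -0.09 was the nearest of these 4 families to the median of all 240 miRNAs (0.15). Its range of 1.51 was below those of let-7 and miR-26 and above that of miR-29, so a spread of this size between members was not particular to miR-30. No test could be made of these differences, which do not depend on a constant scaling.

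**Figure D5:**
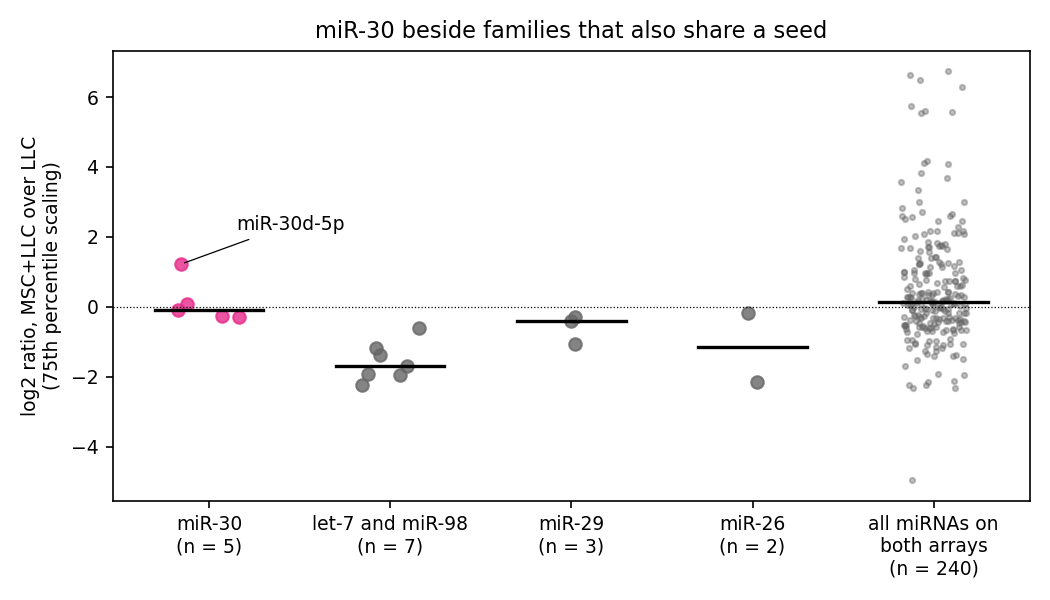
Log2 ratio of MSC+LLC over LLC (75th percentile scaling) of each miRNA on both arrays in the miR-30 family (pink), 3 other seed families and all 240 miRNAs (grey), with black bars at the medians. The miR-30 median (-0.09) is close to that of all miRNAs (0.15), the let-7 median is -1.70, and 1 member, miR-30d-5p, lies above the rest of its family; without scaling every median shown is lower by 3.53.

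Markers of cells that release miRNAs into serum were measured on the same arrays. Of the red cell list 6 of 6 miRNAs were on both arrays, with a median log2 ratio of 0.33 and a range from miR-144-3p at -2.33 to miR-486a-5p at 1.66. miR-92a-3p of that list had 1.25 and miR-451a 1.06, next to 1.22 for miR-30d-5p, whereas miR-16-5p had -0.39. Of the leukocyte and platelet list 4 of 6 had ratios, with a median of -1.32, from miR-142a-3p at -2.25 to miR-223-3p at 0.14. Of the hepatocyte list 2 of 3 had ratios, miR-192-5p at -0.32 and miR-122-5p at 0.78. Of the kidney and heart list, tissues rich in miR-30, 2 of 5 had ratios, the muscle miRNAs miR-1a-3p at 0.15 and miR-133a-3p at 1.28. The other members of that list, miR-204-5p, miR-208a-3p and miR-499-5p, had none. Without scaling each of these ratios is lower by 3.53. The lists did not move as blocks, and their part in the ratio of any miR-30 member was not tested.

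The 5 miRNAs outside the family with ratios nearest to the miR-30 median, over 2 arrays and among miRNAs with at least 2 probes on the same side of 0, were miR-188-5p (-0.09), miR-494-3p (-0.07), miR-24-3p (-0.06), miR-674-3p (-0.13) and miR-8101 (-0.17). The likeness is that of 1 ratio from 2 arrays. Nearest to miR-30d-5p, by the same measure but listed after its value was seen, were miR-296-5p (1.21), miR-5622-3p (1.24), miR-92a-3p (1.25), miR-133b-3p (1.17) and miR-133a-3p (1.28).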

How the data were processed

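RNA of serum exosomes from 1 LLC and 1 MSC+LLC sample was hybridized to Agilent mouse miRNA arrays (1 colour, Cy3). Groups came from the sample titles. The deposited scanner files hold spot intensity on a linear scale, which the authors obtained with Feature Extraction (10.7 per the labels, 11.5.1.1 per the file headers), background-subtracted and not scaled between arrays. The deposited series table holds log2 values that the authors made with GeneSpring GX.

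Control spots and outlier spots (3.04% and 2.95% of miRNA spots) were left out. 0 spots were saturated. The spots of a probe were averaged, each mean was set against its array's 75th percentile over probes that both arrays detected, and log2 ratios were averaged over the probes of a miRNA that were detected on both arrays. A probe detected on 1 array had only a bound, set by the other array's signal for that probe or its lowest detected signal, whichever was higher. The members were all described, with the 3p arms, other holders of the seed, the extremes of 3 comparison families and the 5 miRNAs nearest to the family median. The members and lists were chosen with earlier results of these data known. No test was run, and the number of arrays limits the precision. The alternatives were other scalings, normexp (offset 50), the median of spots, outlier spots kept, other rules of detection, the brightest or dimmest probe, summed signals, the deposited values and fold thresholds of 1.5 and 4. Functions were tested on simulated data. Sequences came from RefSeq (GRCm38.p6), and gene neighbours from its gene table. Normexp was run with limma 3.58.1 in R 4.3.3, and the rest in Python 3.11.15 with pandas 2.3.3, numpy 2.4.6, matplotlib 3.10.9 and scipy 1.17.1.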

Additional observations from a re-analysis of the deposited data

How the results depend on the processing

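A ratio was taken as moved when it shifted by more than its spot SD, and a count when it changed by more than 1.5 times. Scalings by a constant shift all ratios together and leave the range between members at 1.51, so the moves they caused follow from their construction. For other alternatives the cause was not tested. The reported family median of -0.09 was -1.30 when the 75th percentile was taken over all probes, -2.30 under the labelling spike-ins, -2.97 under every spike-in, -3.65 under the hybridization spike-ins, -3.61 without scaling, -0.50 in the deposited values and 0.76 with normexp. In the same order of the first 5, the members at least 2-fold lower were 4, 4, 5, 5 and 5, and 0 were higher. The members at least 2-fold higher were also 0 in the deposited values and at a 4-fold threshold, and 2 with normexp. The ratio of miR-30d-5p turned to -0.998 under the labelling spike-ins, -1.67 under every spike-in, -2.35 under the hybridization spike-ins and -2.31 without scaling.

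Over all miRNAs, 27 lower and 65 higher as reported became 127 and 27 when the 75th percentile was taken over all probes, 181 and 15 under the labelling spike-ins, 204 and 11 under every spike-in, 217 and 8 under the hybridization spike-ins or without scaling, and 10 and 111 with normexp. The lower count was 41 after quantile normalization or with the scanner's own detection flag, 58 in the deposited values and 16 when all spots had to be above background. The 3p arms detected on the LLC array were 4 with at least 1 spot above background or with the scanner flag, and 1 when all spots had to be. Without scaling the medians of let-7 with miR-98, miR-29 and miR-26 were -5.22, -3.92 and -4.69, and miR-26 was -2.15 over members with 2 probes.

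No paired analysis was possible because a group held 1 array. The subtraction of negative controls, the window of 300 to 600 units, the list nearest to miR-30d-5p and the count of members 2-fold higher were chosen after seeing the data. A miRNA under 18.8 units on the MSC+LLC array had no ratio, so the dimmer array limits how far down a miRNA was followed.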

Other observations

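The base composition of the mature miRNAs was weakly related to the ratio over the array. Across 197 miRNAs with a RefSeq sequence and a ratio, Pearson's r between GC content and log2 ratio was 0.18 and Spearman's rho 0.31, given as a description across miRNAs that share both arrays and are not independent. The median log2 ratio was -0.85 for 28 miRNAs under 40% GC, -0.29 for 52 from 40% to under 50%, 0.37 for 50 from 50% to under 60% and 0.25 for 67 at 60% or more. miR-30a-5p (45.5% GC, ratio -0.26), miR-30c-5p (43.5%, -0.09) and miR-30e-5p (40.9%, -0.30) lay close to the median of their bin. miR-30b-5p and miR-30d-5p, the member that stood apart, had no RefSeq sequence here and were not placed in a bin. Whether base composition had a part in the ratios of the family was not tested.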
